A study of Mus musculus with 502 samples.

Results

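The wide silencers of K562 cells are the regions over 300 bp in the K562 silencer list, on chromosomes 1 to 22. They were chosen by their deposited width, which is itself a readout of the assay, and no line over 5000 bp was admitted. They numbered 2973 of the 128489 usable K562 silencers on these chromosomes, or 2.31%. The other 125516 silencers of the list, each 300 bp or less, are called the rest. K562 is a chronic myeloid leukaemia line with erythroid features. The study mapped silencers across the genome by Ss-STARR-seq in K562, in the prostate cancer line LNCap, which responds to androgen, and in the embryonic kidney-derived line 293T. Its labels list 180 K562, 179 LNCap and 102 293T libraries of reporter RNA, with 40 LNCap and 1 293T libraries of input DNA, and the authors deposited 1 list per line. No treatment or genotype separates the groups, which differ in the cell line transfected.

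Silencers are stretches of DNA that lower the transcription of a promoter, usually by binding repressor proteins that recruit enzymes acting on histones. In a STARR-type assay, fragments of a genome are cloned into a reporter plasmid and transfected, and the RNA made from each plasmid is set against its share of the DNA library. A fragment with silencer activity is poor in RNA for its DNA. Fragments were read outside their own chromosomal surroundings, so the assay measures what the sequence can do on a plasmid. The study sheared genomic DNA to 300 to 400 bp, per the labels' protocols. A called region can be shorter than a fragment where part of it passes the threshold, and longer where fragments overlap.

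Each list is 1 result per line, with no replicate list and no read counts, so no test between cultures was possible and the depth behind a silencer is unknown. Intervals given with shares are 95% Wilson intervals, which cover counting error only and treat silencers as independent. The tests below use the 22 autosomes as paired blocks, so their p-values describe how uniformly a difference held along the genome. Positions are on hg38 and are printed as deposited.

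The wide silencers took up far more of the silencer sequence than their number would give. They covered 1.23 Mb, which was 10.4% of the 11.8 Mb held by all autosomal K562 silencers. Their median width was 398 bp, with quartiles of 350 and 450 bp, whereas the rest had a median of 50 bp with quartiles of 50 and 100 bp. These widths are what the rule used and are given as a description. Widths of 350 bp were the most common, with 845 silencers (28.4% of the wide ones), followed by 400 bp with 454, 450 bp with 260 and 500 bp with 144.

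Most wide silencers were no longer than the sheared fragments. Of the 2973, 1951 (65.6%) measured up to 400 bp and 1022 (34.4%) were longer than that. Only 23 exceeded 800 bp, and the longest reached 1259 bp. Of the wide silencers, 64.3% had a width that was a multiple of 50 bp, against 89.3% of the rest, so the width is counted mainly in the 50 bp windows of the list.

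**Figure D1:**
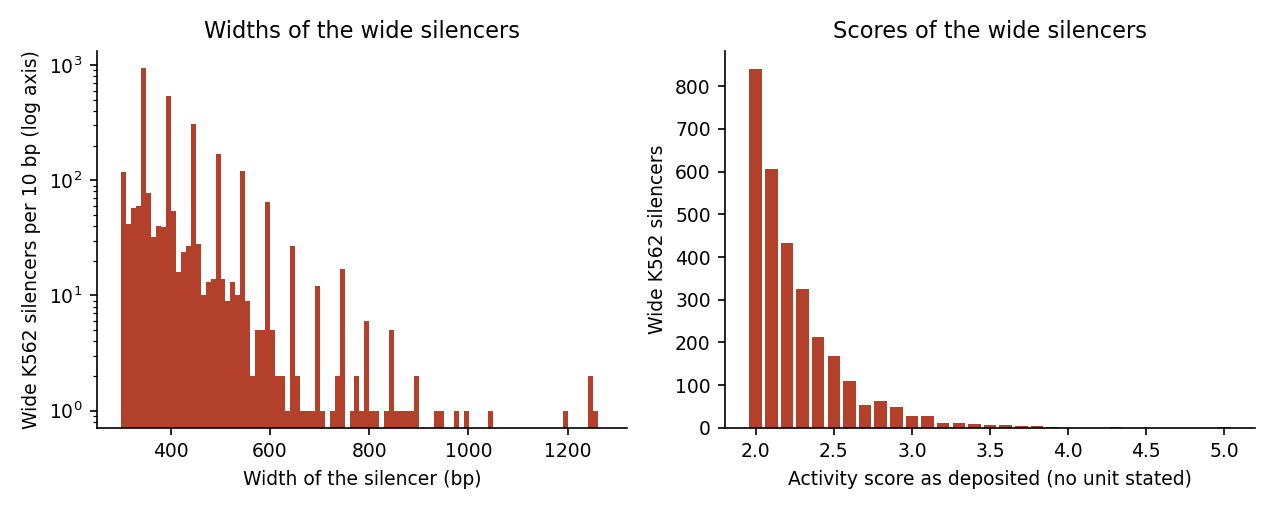
Number of wide K562 silencers by width, in classes of 10 bp with counts on a log axis (left), and by deposited activity score (right). Peaks stand at multiples of 50 bp, with 845 silencers at 350 bp and 454 at 400 bp, and most scores lie near the lowest deposited value of 2.

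The threshold cut through a gradual decline of widths. At exactly 300 bp, just outside, stood 1747 silencers, and at 301 bp, just inside, stood 91. Of these 91, 89 started at a multiple of 50 and ended 1 bp past one. The first lines inside the threshold, ordered by position, lay on chromosome 1 at 16709100 to 16709401 (score 2.2), 20690700 to 20691001 (score 2.3), 143881200 to 143881501 (score 2.2), 144406000 to 144406301 (score 2) and 188697350 to 188697651 (score 2.3). The first lines outside it lay on chromosome 1 at 791250 to 791550 (score 2), 1105437 to 1105737 (score 2.3), 1142301 to 1142601 (score 2.1), 5461001 to 5461301 (score 2) and 6232861 to 6233161 (score 2.2). The 5 lines on each side had similar scores.

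The activity score, deposited with 1 decimal and on an unstated scale, comes from the same calls as the width and is described without a test. Wide silencers had a median score of 2.2 with quartiles of 2 and 2.4. The rest had the same median of 2.2, with quartiles of 2.1 and 2.5. High scores were rarer among the wide ones, of which 112 (3.77%) scored 3 or more, against 12572 (10.0%) of the rest. The highest wide score was 5, while the highest finite score of the rest was 11.8 and another 30 of the rest had an infinite score. A score of exactly 2, the lowest in the list, was held by 28.3% of the wide and 22.9% of the rest. Within the wide silencers the share at a score of 2 was 26.2% at 301 to 350 bp, 28.6% at 351 to 400 bp, 28.5% at 401 to 500 bp and 34.2% above 500 bp.

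The widest silencer of the K562 list lay on chromosome 21 at 10679542 to 10680801, with a width of 1259 bp and a score of 2. No LNCap or 293T silencer overlapped it at any base. The 2 next in width measured 1250 bp each. One, on chromosome 7 at 16398351 to 16399601, scored 3.2, and 3 LNCap silencers covered 900 bp of it. The other, on chromosome 21 at 10683851 to 10685101, scored 2, and 3 LNCap silencers together covered 950 bp of it. One of the 3, at 10684451 to 10685401, was itself 950 bp wide and ran past the end of the K562 silencer. The fourth widest was again on chromosome 21, at 10695901 to 10697101 (1200 bp, score 2.5), with 370 bp covered by LNCap. The fifth, on chromosome 1 at 28697951 to 28699001 (1050 bp, score 2), had 900 bp covered by LNCap, and one of its LNCap partners began at the same base. The sixth, on chromosome 14 at 74053701 to 74054701 (1000 bp, score 2.2), was the only one of these 6 that overlapped 293T, over 200 bp, and it overlapped no LNCap silencer.

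The wide silencers with the highest scores were close to the width threshold. The highest, with a score of 5, lay on chromosome 10 at 38578100 to 38578451, and a LNCap silencer with a score of 4.3 (38577700 to 38578400) covered 300 of its 351 bp. The next was on chromosome 7 at 97904300 to 97904650 (350 bp, score 4.3), where a LNCap silencer scoring 3 covered 200 bp. A silencer on chromosome 9 at 22192577 to 22192921 (344 bp, score 3.9) was covered over 150 bp by a LNCap silencer that also scored 3. The other 3 scored 3.8. Those on chromosome 2 at 202903400 to 202903702 (302 bp) and on chromosome 3 at 185944701 to 185945051 (350 bp) overlapped neither other list, and that on chromosome 10 at 37613800 to 37614101 (301 bp) lay wholly inside a LNCap silencer of 500 bp. None of these 6 overlapped 293T, which 8.38% of all wide silencers did over their whole width.

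Whether a wide K562 silencer was also found in another line was asked at its central 50 bp. This window has the same length in every silencer, so a longer silencer offers no more bases to meet, and an overlap of 1 bp was enough. Its place on the 50 bp windows of the list differs between odd and even multiples of 50 bp, and the effect of this was not tested. The LNCap and 293T lists were not used by the rule. Of the 2973 wide silencers, 922 met a LNCap silencer at the centre (31.0%, interval 29.4 to 32.7), against 16389 of the 125516 others (13.1%, interval 12.9 to 13.2). Over all autosomal K562 silencers the share was 13.5%. The share among the wide was thus 2.38 times that among the rest. It was higher on 22 of 22 autosomes, with a mean difference of 17.8 percentage points (SD 5.18 over autosomes; two-sided sign-flip permutation test, p = 1e-05, the smallest the 100000 resamples can give, adjusted p = 3e-05 over 3 tests).

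The 293T list gave a much smaller difference. Of the wide silencers, 95 met 293T at the centre (3.20%, interval 2.62 to 3.89), against 2976 of the rest (2.37%, interval 2.29 to 2.46), with 2.39% over all. The ratio was 1.35, and the mean difference over autosomes was 1.03 percentage points (SD 1.92, higher on 17 of 22, sign-flip permutation p = 0.00402, adjusted p = 0.00402). The difference was not present in all parts of the list. With the last 50 bp in place of the centre the ratio was 1.12, with an adjusted permutation p of 0.178. Among K562 silencers with a score of 2.4 or more the ratio turned to 0.960, with an adjusted permutation p of 0.816, and among silencers above the median score of each list it was 1.02 with an adjusted permutation p of 0.932.

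The gain in overlap with width was larger for LNCap than for 293T. On the log2 scale the wide over rest ratio was higher for LNCap by 0.66 on average (SD 0.61 over autosomes, higher on 20 of 22, sign-flip permutation p = 0.0002, adjusted p = 0.0003), a factor of 1.58. With the first 50 bp in place of the centre this difference was 0.29 and no longer passed (higher on 14 of 22, adjusted permutation p = 0.103), and over the whole width it was 0.25 (16 of 22, adjusted permutation p = 0.0414). Both comparisons share the K562 list, and on single autosomes only 1 to 6 wide silencers met 293T. The labels name 40 LNCap input libraries, 1 for 293T and no K562 input among the 502 libraries, and the input behind each list is not given in the sources used here. When each of the 22 autosomes was left out in turn, the LNCap ratio ranged from 2.33 to 2.42 and the 293T ratio from 1.28, without chromosome 22, to 1.39, with adjusted permutation p-values of at most 0.00808. On chromosome 22, 6 of 59 wide silencers (10.2%) met 293T, the highest share of any autosome, against 1.98% of the rest there.

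**Figure D2:**
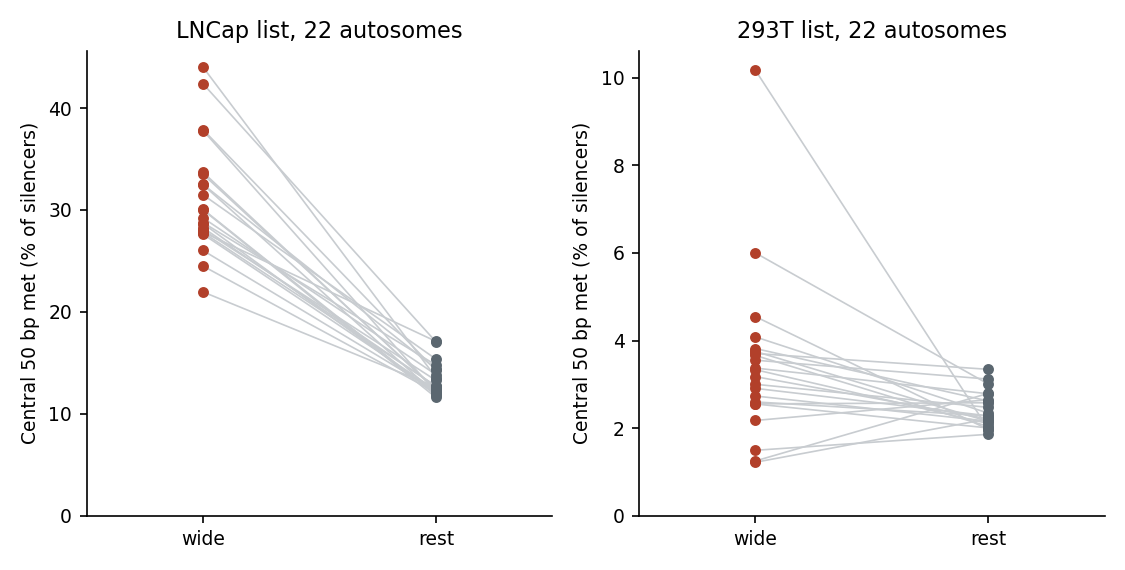
Share of K562 silencers whose central 50 bp met the LNCap list (left) and the 293T list (right), in percent, with 1 point per autosome for wide silencers and 1 for the rest, joined by a line. For LNCap the wide shares run from 22% on chromosome 15 to 44.0% on chromosome 21 and lie above the 11.6% to 17.1% of the rest, and for 293T the wide and rest values overlap.

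The LNCap share was larger in each wider class up to 300 bp, was the same in the class on either side of the threshold, and was larger again above 350 bp. Silencers of exactly 50 bp met LNCap at the centre in 11.0% of cases, those of 101 to 150 bp in 15.5% and those of 201 to 250 bp in 21.7%. The share was 27.5% at 251 to 300 bp (interval 25.7 to 29.3) and again 27.5% at 301 to 350 bp (25 to 30.0). It reached 33.2% at 351 to 400 bp (29.9 to 36.7), 34.9% at 401 to 500 bp (31.4 to 38.6) and 31.4% above 500 bp (26.8 to 36.4). The intervals of the last 3 classes overlap one another. At single widths the values on the 2 sides differed: 14 of the 91 silencers of 301 bp (15.4%) met LNCap and 0 met 293T, against 520 (29.8%) and 79 of the 1747 silencers of 300 bp. At 350 bp, 241 of 845 (28.5%) met LNCap and 31 met 293T. The 293T share was also larger in wider classes up to 300 bp, apart from 2.69% at 51 to 100 bp and 2.64% at 101 to 150 bp. It was 2.06% at 50 bp, 3.27% at 201 to 250 bp and 4.27% at 251 to 300 bp (3.53 to 5.15). Above 300 bp it did not keep this order. The wide classes stood at 2.86%, 3.16%, 2.87% and 5.00% in order of width, and all 4 intervals overlap.

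**Figure D3:**
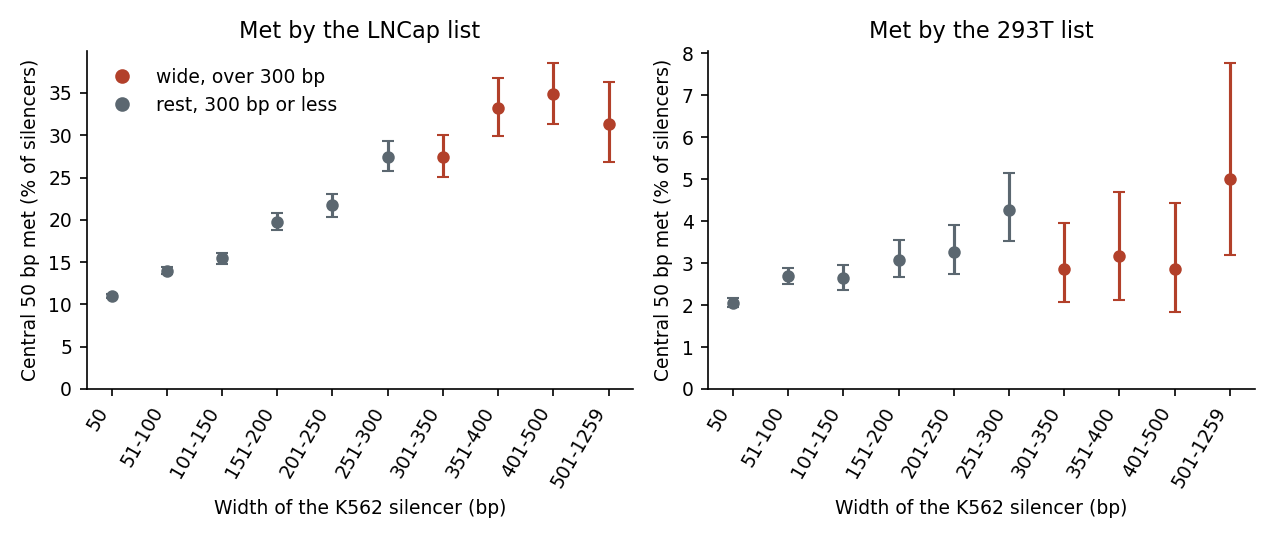
Share of K562 silencers whose central 50 bp met the LNCap list (left) or the 293T list (right), in percent, by width class in bp, with 95% Wilson intervals as bars and wide classes in red. The LNCap share is 11.0% at 50 bp and 27.5% on both sides of the 300 bp threshold, and it lies between 31.4% and 34.9% above 350 bp.

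The higher overlap of wide silencers with LNCap was seen at each score. At a K562 score of 2, 25.3% of 841 wide silencers met LNCap (interval 22.5 to 28.4) against 8.95% of the rest, a ratio of 2.83. At a score of 2.1 the shares were 30.3% of 607 wide silencers and 10.7% of the rest, and at 2.2 to 2.3 they were 31.3% of 758 and 12.4%. At 2.4 to 2.6 they were 35.8% of 491 wide silencers and 15.2% of the rest. At 2.7 and above, 40.6% of 276 wide silencers met LNCap (interval 35.0 to 46.5) against 19% of the rest, a ratio of 2.14. The share was thus larger in each higher score class among wide silencers and among the rest alike. For 293T the wide shares lay between 2.85% and 3.56% in the 5 score classes, while those of the rest ran from 1.71% at a score of 2 to 3.35% at 2.7 and above. Wide silencers that met LNCap had a median score of 2.2 and a median width of 400 bp, and those that did not had 2.1 and 392 bp.

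LNCap silencers lay more often at the middle of the wide K562 silencers than at their edges. The central base of 26.2% of wide silencers lay inside a LNCap silencer, as did 24.3% of the bases 100 bp before it and 23.9% of those 100 bp after it. At 200 bp the values were 14.4% and 13%, and at 300 bp 5.62% and 5.28%. Positions 200 bp from the centre lie at or past the ends of the 65.6% of wide silencers that measure up to 400 bp. The rest of the list held LNCap at 10.3% of central bases and at 6.54% and 6.36% of bases 100 bp away. With a median width of 50 bp, most of the rest do not reach that far, whereas all wide silencers do. The same fall toward the edges appeared in windows of equal length: the central 50 bp of wide silencers met LNCap in 31.0% of cases, the first 50 bp in 20.8% (interval 19.3 to 22.2) and the last 50 bp in 20.0% (18.6 to 21.5). For 293T these windows gave 3.20%, 2.96% and 2.56%, with overlapping intervals.

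Beyond the silencers themselves, LNCap silencers were also somewhat denser around wide ones. From 600 to 1500 bp on both sides of the centre, 1.26% of positions taken every 50 bp lay in a LNCap silencer for the wide against 0.664% for the rest, and the wide value was higher on 17 of 22 autosomes. For 293T the flanks stood at 0.647% around the wide and 0.458% around the rest, with the wide value higher on 16 of 22 autosomes. The 293T ratio of wide over rest was thus 1.41 in the flanks and 1.35 at the central 50 bp. For LNCap these ratios were 1.89 and 2.38. Without the 5 bins of 1 Mb that hold most wide silencers the LNCap flanks stood at 0.892% around the wide, against 0.634% around the rest. No test was run on the flanks.

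**Figure D4:**
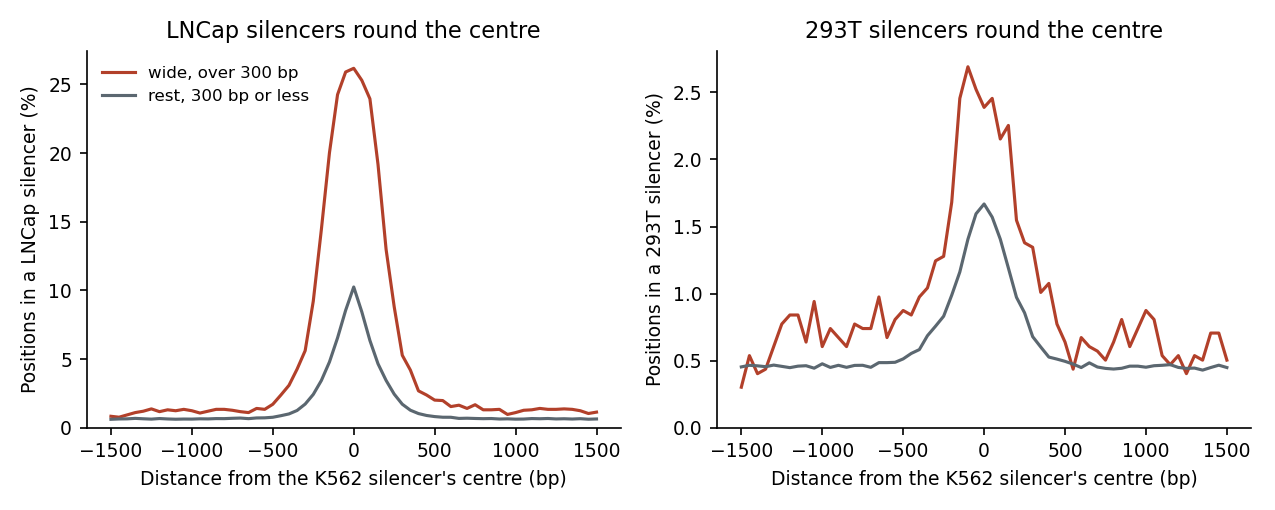
Share of positions inside a LNCap silencer (left) or a 293T silencer (right), in percent, by distance in bp from the centre of each K562 silencer, for wide silencers and for the rest. The LNCap curve of the wide silencers peaks at 26.2% at the centre and stands at 5.62% and 5.28% at 300 bp, against a peak of 10.3% for the rest, and the 293T curves stay below 3%.

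Wide K562 silencers also met wide LNCap silencers more often. A LNCap silencer over 300 bp lay at the centre of 263 wide K562 silencers (8.85%, interval 7.88 to 9.92) and of 1502 of the rest (1.20%, interval 1.14 to 1.26), with 1.37% over the list. For 293T silencers over 300 bp the numbers were 15 of the wide (0.505%, interval 0.306 to 0.831) and 161 of the rest (0.128%, interval 0.110 to 0.150), with 0.137% over the list. At the centres of wide K562 silencers lay 922 LNCap silencers whose widths had a median of 250 bp, and 28.5% of them exceeded 300 bp. The 15607 LNCap silencers at the centres of the rest had a median of 100 bp, and 7.60% of them exceeded 300 bp. Within the LNCap list as a whole the median was 50 bp, and 2.27% were over 300 bp. A wide partner has more chance of holding a given window. With LNCap silencers cut to their central 50 bp, 17.2% of the wide and 9.16% of the rest met them at the centre. This was a ratio of 1.87, against 2.38 with LNCap silencers at full width. With 293T silencers cut in the same way the ratio was 1.22, and the log2 difference between lists was 0.41. The LNCap partners of both sets had a median LNCap score of 2.4.

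Over their whole width, 1523 wide silencers (51.2%, interval 49.4 to 53.0) held at least 1 bp of a LNCap silencer and 249 (8.38%, interval 7.43 to 9.43) held 293T. Among the rest these shares were 14.8% and 2.89%, but a wider region meets a list more often by its length alone. A LNCap partner usually stood alone: 1144 of the 1523 overlapped 1 LNCap silencer, 337 overlapped 2 and 42 overlapped 3 or more. The median part of a wide silencer covered was 37.8% (quartiles 15.6% and 66.7%), or 150 bp. LNCap covered at least 50% of the width in 617 wide silencers and all of it in 78. The 249 with a 293T partner had a median of 18.3% covered, and 5 were covered in full. Identical starts in LNCap were found for 135 wide silencers, identical ends for 147, and both for 16. No wide silencer had both ends in common with a 293T silencer. Of the wide silencers, 1350 (45.4%) overlapped neither list at any base, against 83.0% of the rest.

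Only 37 wide silencers (1.24%, interval 0.904 to 1.71) met both LNCap and 293T at the centre, against 579 of the rest (0.461%, interval 0.425 to 0.500) and 0.479% over the list. They lay on 16 autosomes, with a median width of 400 bp and a median score of 2.2. Over their whole width, the part held by both other lists had a median of 100 bp and ran from 0 to 400 bp. The silencer on chromosome 5 at 60938501 to 60938901 met both lists but held no base common to them.

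In the clearest case the 3 lists named almost the same stretch of chromosome 22. The K562 silencer ran from 36956701 to 36957151 (450 bp, score 2.3), the LNCap silencer from 36956701 to 36957301 (score 2.1) and the 293T silencer from 36956701 to 36957101 (score 2.7). All 3 began at the same base, and 400 bp were common to them. On chromosome 5 the K562 silencer at 140628001 to 140628401 (400 bp, score 2.2) began with LNCap (140628001 to 140628301, score 2.3) and 293T (the same 300 bp, score 2.2). On chromosome 17 the K562 silencer at 60816301 to 60816651 (350 bp, score 2.1) shared 300 bp with LNCap (60816151 to 60816601, score 2.6) and 293T (60816301 to 60816601, score 3.1).

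The next 3 shared 250 bp each. On chromosome 9 the silencer at 130298651 to 130299001 (350 bp, score 2.1) faced LNCap at 130298651 to 130298951 (score 2.8) and 293T at 130298701 to 130299001 (score 2.2). Also on chromosome 9, the silencer at 137859201 to 137859601 (400 bp, score 2.8) faced LNCap at 137859301 to 137859551 (score 3.7) and 293T at 137859293 to 137859784 (score 3). On chromosome 17 the silencer at 67997321 to 67998001 (680 bp, score 3.1) ended at the same base as a LNCap silencer of 530 bp with a score of 2.8. Each of these 6 lay at least 2950 bp from its nearest K562 neighbour, other than that on chromosome 22, which lay 50 bp from one.

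Wide silencers were spread over all autosomes but not evenly relative to the rest. Chromosomes 21, 19 and 17 held the largest excess. Of the chromosome 21 silencers 3.38% were wide (50 of 1481, interval 2.57 to 4.42), of those on chromosome 19 3.29% (169 of 5139, interval 2.83 to 3.81) and of those on chromosome 17 3.25% (162 of 4980, interval 2.80 to 3.78). Relative to the distribution of the rest, these chromosomes had 1.48, 1.44 and 1.42 times their share of wide silencers. Chromosome 22 followed with 1.33 times its share (59 of 1929, 3.06%, interval 2.38 to 3.93). The lowest ratios were 0.803 on chromosome 2 (200 of 10715), 0.848 on chromosome 8 (134 of 6807) and 0.867 on chromosome 6 (131 of 6510). The interval of chromosome 2, 1.63 to 2.14%, lay below the 2.31% of all autosomes, and those of chromosomes 8 (1.66 to 2.33%) and 6 (1.70 to 2.38%) included it.

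The excess on chromosome 21 was not seen outside 1 Mb. The bin from 10 to 11 Mb of that chromosome, next to the centromere, held 24 wide silencers among 101 (23.8%, interval 16.5 to 32.9). Without the 5 bins with most wide silencers, chromosome 21 turned to 0.830 times its share, while chromosome 17 stood at 1.33, and chromosomes 19 and 22, which have none of these bins, at 1.47 and 1.36.

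**Figure D5:**
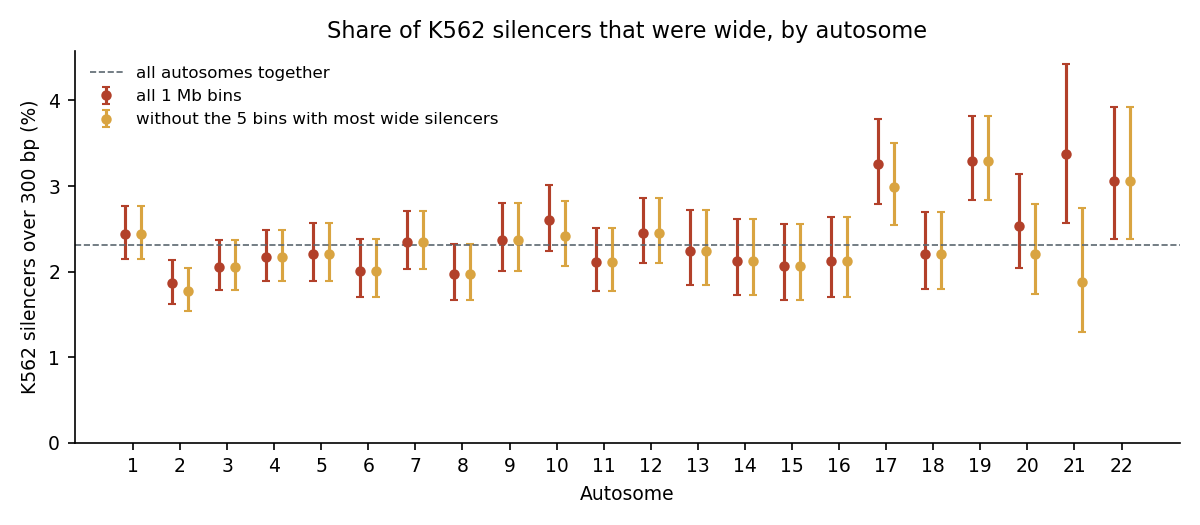
Percent of the K562 silencers of each autosome that were over 300 bp, with 95% Wilson intervals as bars, for all 1 Mb bins and without the 5 bins with most wide silencers, and a dashed line at the 2.31% of all autosomes. Chromosomes 17, 19 and 22 stand above the line with their intervals in both settings, whereas chromosome 21 stands at 1.88% without the bins and at 3.38% with them.

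The 5 fullest bins held 80 wide silencers, 2.69% of all, and 480 of the rest, 0.382% of them. Elsewhere wide silencers were thinly spread. Of 2759 bins of 1 Mb with any K562 silencer, 1631 held a wide one and 891 of these held 1. After chromosome 21, the fullest bins lay on chromosome 10 from 38 to 39 Mb (16 wide of 162), chromosome 17 from 26 to 27 Mb (16 of 97), chromosome 20 from 31 to 32 Mb (13 of 123) and chromosome 2 from 89 to 90 Mb (11 of 77). On the hg38 map these bins lie beside or near centromeres, where copied sequence is common. How reads were placed there was not examined.

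The other lists were compared in the same bins. In the chromosome 21 bin, 24 of 95 LNCap silencers and 3 of 42 293T silencers were over 300 bp. The chromosome 10 bin had 6 of 125 in LNCap and 3 of 104 in 293T, and the chromosome 17 bin 2 of 62 and 2 of 42. The chromosome 20 bin had 6 of 108 in LNCap and 1 of 54 in 293T, and the chromosome 2 bin 5 of 57 and 2 of 37. Over all autosomes 2.27% of LNCap and 1.40% of 293T silencers were over 300 bp. Of the 24 wide K562 silencers in the chromosome 21 bin, 12 met LNCap at the centre and 0 met 293T. Among all wide silencers these shares were 31.0% and 3.20%.

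Most wide silencers stood alone. When wide silencers up to 10000 bp apart were joined, 2739 (92.1%) had no wide neighbour, 75 pairs formed, and 12 runs held 3 or more. The longest run, on chromosome 21 from 10653051 to 10724551, held 23 wide silencers in 71.5 kb, with a median width of 457 bp and 48 narrower silencers between them. LNCap had 22 silencers over 300 bp in the same stretch and 293T had 0. A run of 10 lay on chromosome 17 from 26820400 to 26858191, with 1 wide LNCap silencer in it. A run of 8 on chromosome 10 from 42301797 to 42321451 had 6 wide LNCap silencers, and a run of 7 on chromosome 17 from 21852701 to 21879901 had 0. One run lay far from a centromere, on chromosome 19 from 4874449 to 4885100, with 3 wide silencers, no narrower one and no overlap at the centre with either list. The 84 wide silencers in runs met LNCap in 31 cases (36.9%), with an interval of 27.4 to 47.6 that includes the 31.0% of all wide silencers.

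The gaps to the nearest K562 silencer of any width were similar in their medians, and close neighbours were less common for the wide. The nearest silencer lay at a median of 4330 bp from a wide silencer and 4450 bp from one of the rest. A neighbour within 50 bp was found for 304 wide silencers (10.2%) and 13.2% of the rest, and within 500 bp for 643 (21.6%) and 25.1%. These gaps come from the same calls as the width and were not tested. Joining K562 silencers up to 50 bp apart before measuring would raise the number over 300 bp to 4119.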

How the data were processed

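The authors deposited 1 silencer list per line, with chromosome, start, end and an activity score of unstated scale, per the file headers. Bowtie2, SAMtools and hg38 are named, without versions, in the submitters' processing notes. Not given in the sources used here are the region caller, its thresholds, the input used and the pooling of libraries. All libraries are labelled mouse, but the named lines and build are human.

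Broken lines, unknown chromosomes and widths (end minus start) of 0 or less or over 5000 bp were left out, which removed 12 K562, 25 LNCap and 58 293T lines. An overlap was at least 1 bp. Differences between wide silencers and the rest were tested by two-sided sign-flip permutation over 22 autosomes (100000 resamples), with Benjamini-Hochberg adjustment over 3 tests and a threshold of 0.05. For the difference between lists, 0.5 was added to each count. The overlap search was checked on simulated, well separated silencers with known sharing. That check does not cover how the sign-flip test behaves on these lists. Software comprised pandas 2.3.3 and numpy 2.4.6 under Python 3.11.15, scipy 1.17.1 for intervals, and for plotting matplotlib 3.10.9.

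The width rule, lists and tests were chosen with earlier results of these data known. Named are the 6 widest, the 6 highest scoring and the 6 most shared wide silencers, 5 lines on each side of the threshold, 5 bins and 3 autosomes at each end. Added after the data were seen were the runs, the flanks, the score classes, the values without 5 bins, those without widths 1 bp above a multiple of 50, and those leaving out each autosome in turn. Gene features, base composition, motifs and sequences were not analysed here, since no human genome or annotation was used.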

Additional observations from a re-analysis of the deposited data

Results flagged for a closer look

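The difference between lists in the wide over rest ratio was singled out because a test of the difference itself passed its threshold. With all autosomes pooled, LNCap gave 2.38 times and 293T 1.35 times the share of the rest. The difference tested was instead the mean of the log2 differences within autosomes, 0.66 (higher on 20 of 22, sign-flip permutation test, adjusted p = 0.0003). It rests on 1 list per line, and both ratios share the K562 list.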

How the results depend on the processing

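The LNCap ratio kept its direction and its side of the threshold in all 19 alternatives, from 1.65 for the last 50 bp to 3.45 for the whole width, with adjusted permutation p-values of at most 3e-05. The 293T ratio did so in 13 of 19. It no longer passed with the last 50 bp (1.12, adjusted permutation p = 0.178), with 50% of both silencers covered (1.21, p = 0.29), above the median scores (1.02, p = 0.932), at a K562 score of 2 (1.74, p = 0.058) or at 2.1 (1.74, p = 0.147), and it reversed at scores of 2.4 and above (0.960, p = 0.816). The cause was not tested. The log2 difference between lists was 0.29 with the first 50 bp (adjusted permutation p = 0.103) and passed in the other 10 alternatives, from 0.25 to 0.77. It passed narrowly over the whole width (0.25, adjusted permutation p = 0.0414). With wide set over 400 bp it was 0.35, higher on 14 of 22 autosomes (adjusted permutation p = 0.0494). The share met by both lists moved to 5.01% over the whole width. The number of wide silencers was 4720 with width counted as end minus start plus 1 and 1912 with only multiples of 50 bp. With wide set over 400 bp, chromosome 21 moved to 2.23 and chromosome 17 to 1.70 times their share, and without the 5 fullest bins chromosome 21 reversed to 0.830. No paired analysis was possible because the lists hold no values per library, and for the same reason no replicate could be left out. Alternatives on gene features, base composition and motifs were not run. Depth is unknown, so a silencer missing from a list cannot be told apart from one not detected there.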

Other observations

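Outside the autosomes, chromosome X held 133 K562 silencers over 300 bp, against 151 in LNCap and 72 in 293T. These are counts, and the lists differ in their share of wide silencers. Over all autosomes that share was 2.31% in K562, 2.27% in LNCap and 1.40% in 293T.

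Starts at 0 or 1 past a multiple of 50 were about as common among the wide (50.7%) as among the rest (49.6%), but starts and ends matched less often. Leaving aside starts at a multiple of 50 with ends 1 bp past one, 839 of the wide (28.2%) had different remainders of 50 at start and end. In the rest this share was 7.92%. Starts and ends both at 1 past a multiple of 50 were found for 992 wide silencers (33.4%) and 43.1% of the rest. In these 2 kinds the centre met LNCap in 30.6% and 34.1% of wide silencers, and in 14.1% and 12.8% of the rest. A start at a multiple of 50 with an end 1 bp past one was held by 222 wide silencers (7.47%) and 2.82% of the rest. Of those 222, 24.8% met LNCap (interval 19.6 to 30.9), against 10.1% of the rest of this kind.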
